A study of Bos taurus with 57 samples.

Results

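The 150 genes described here were those whose transcripts were most regularly higher in the testes of bull calves on a low plane of nutrition than in those of calves on a high plane. Counts were expressed as CPM (1000000 times a gene's count over the library's total count), and the genes with a mean of at least 1 CPM in the low plane testes libraries were ranked by the share of pairs of a high and a low plane library in which the low plane library held the higher CPM, with ties ordered by the ratio of the median CPM. This rule ranked 14516 of 24616 genes and took the first 150. The testes values below therefore describe how the genes were chosen and were not tested, whereas the anterior pituitary and arcuate nucleus libraries played no part in the choice.

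The animals were Holstein Friesian bull calves, and their labels separate them by diet alone. High plane calves, which received more milk replacer and concentrate to appetite, grew at 1.08 kg per day, and low plane calves, which received restricted amounts of both, grew at 0.5 kg per day. mRNA was sequenced from the testes (10 high plane and 8 low plane libraries), the anterior pituitary (9 and 10) and the arcuate nucleus (10 and 10), each library from the tissue of 1 calf. The labels do not say which libraries of different tissues came from the same calf.

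The seminiferous tubules of the prepubertal testis hold Sertoli cells, which nurse the germ cells, and the spermatogonia and spermatocytes from which sperm will form, and the Leydig cells between the tubules make testosterone. The testis is driven by luteinizing hormone and follicle stimulating hormone from the anterior pituitary. Their release is in turn set by hypothalamic neurons that receive signals of metabolic state through the arcuate nucleus. The gene identifiers could not be paired with names, so no gene could be assigned to one of these cell types and the tissues could not be checked against their defining markers. In bulk tissue of this kind, fewer cells of a type and less RNA per cell cannot be told apart.

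Total counts were 8586953 to 26067610 per testes library, with a median of 18655866 on the high plane and 14180871 on the low plane. They were 6895844 to 27426173 in the anterior pituitary and 898979 to 32009433 in the arcuate nucleus. A pair of arcuate nucleus libraries stood apart in holding genes of another tissue. Over 147 genes with a testes median of at least 5 CPM and over 50 times the medians of both other tissues, C44 (high plane) held a median of 26.5% of the testes level, against at most 0.36% in the other 38 pituitary and arcuate nucleus libraries. Over 46 anterior pituitary genes chosen in the same way, C8 (low plane) held 12.6% of the pituitary level, against at most 0.972% in the other testes and arcuate nucleus libraries. Over 114 arcuate nucleus genes, no testes or pituitary library held more than 1.19%. The score slopes, the median diet difference and the tissue levels in the arcuate nucleus are therefore also given without C44 and C8. Other arcuate nucleus results include both libraries unless stated. The testes library A48, whose label and data header carry different letters, correlated with the other 17 testes libraries at a median of 0.991 across genes, against 0.890 with the anterior pituitary libraries, and was kept.

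The 57 libraries also differed along an axis that was shared by the tissues. In the testes and pituitary, libraries of both planes lay at each end of it. What the axis reflects was not tested. The position of a library on it was measured by a score, the mean log2 CPM of 200 genes. These were picked from the other 2 tissues and held none of the 150 genes. The scores fell into 2 sets, 13 libraries between -1.68 and 1.58 and 44 libraries between 3.41 and 5.10. A limit of 2.5 between these sets was chosen after the scores were seen. In the testes, 5 of 8 low plane libraries (B2, B15, B20, B21 and B26) and 1 of 10 high plane libraries (B42) had a low score. High plane libraries had a mean score of 4.15 ± 1.70 (SD, n = 10) and low plane libraries one of 1.66 ± 2.67 (SD, n = 8), and this difference had an exact two-sided permutation p of 0.0369, which became 0.111 after Benjamini-Hochberg adjustment over the 3 tissues. The low score libraries of the testes held 8586953 to 19998408 reads and the high score libraries 14472180 to 26067610. Low scores were found in 3 of 9 high plane and 2 of 10 low plane pituitary libraries (exact permutation p = 0.343, adjusted p = 0.343) and in 0 of 10 high plane and 2 of 10 low plane arcuate nucleus libraries (permutation p = 0.205, adjusted p = 0.308). The plane of nutrition and the score thus overlapped most in the tissue in which the genes were chosen.

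**Figure D1:**
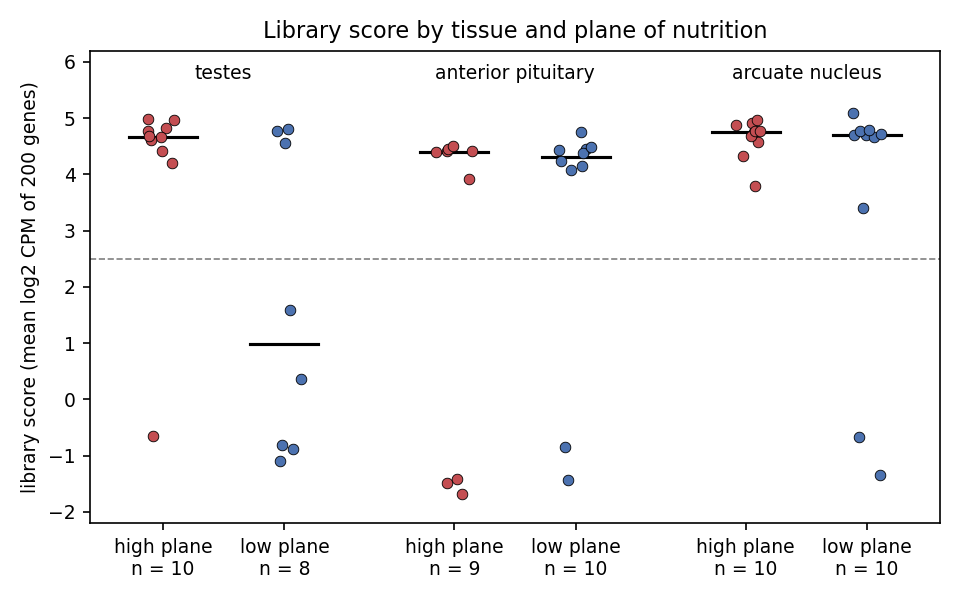
Library score (mean log2 CPM of 200 genes, vertical axis) of each library by tissue and plane of nutrition, with 1 point per library, black bars for group medians and a dashed line at the limit of 2.5. Of the 13 libraries under the line, 6 are testes libraries, and 5 of these are from low plane calves.

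Each of the 150 genes was higher in the low plane library in at least 77 of the 80 pairs of testes libraries. There were 28 genes with no overlap between the planes, which was 0.193% of the ranked genes. A further 31 genes held in 79 pairs, 47 in 78 pairs, and 44 of the 77 genes with 77 pairs were taken by their ratio of medians. Over all ranked genes, 183 were higher on the low plane in 77 or more pairs and 24 in 3 or fewer. The ratio of the low plane to the high plane median ran from 1.14 to 3.80 with a median of 1.95. It was over 2 in 66 genes and under 1.5 in 35. The last 3 genes taken had ratios of 1.69, 1.63 and 1.62, and the first 3 left out had 1.62, 1.57 and 1.57, all with 77 pairs.

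The first 12 genes by rank had ratios of 1.97 to 2.85, without overlap between the planes. The gene ranked first, ENSBTAG00000020375, ranged from 0.260 to 1.18 CPM with a median of 0.773 in the 10 high plane testes libraries. In the 8 low plane libraries it ranged from 1.22 to 2.999 CPM with a median of 2.20. Its 3 lowest low plane values were those of the high score libraries B7, B31 and B50, at 1.22 to 1.31 CPM, and all 5 low score libraries lay between 2.08 and 2.999 CPM. The high plane library of low score, B42, held 0.600 CPM and lay inside the high plane range. The gene was nearly absent elsewhere, with a mean of 0.0507 CPM in pituitary libraries and 0.145 CPM in the arcuate nucleus.

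ENSBTAG00000031198, ranked 6, was a more abundant gene of the same kind. It held 10.5 to 22.6 CPM (median 14.4) on the high plane and 23.7 to 54.4 CPM (median 30.2) on the low plane, again without overlap. B31, of high score, was the lowest and B2, of low score, the highest of the low plane libraries. Over the pituitary libraries its mean was 0.0479 CPM. In the arcuate nucleus C44 held 4.51 CPM, and the other 19 libraries had a mean of 0.0295 and a maximum of 0.191 CPM. The gene with the largest testes CPM, ranked 57, showed the other form that the rule admits. It moved little but with little spread, with 462 ± 43.4 CPM (SD, n = 10) in high plane calves and 556 ± 34.8 CPM (SD, n = 8) in low plane calves. The largest ratio of medians, 3.80, belonged to the gene ranked 60, whose median rose from 0.681 to 2.58 CPM.

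In a fit of all 15310 genes that passed edgeR's filter on low counts in the testes, the log2 fold change of the low relative to the high plane had a median of 1.03 over the 150 genes and ran from 0.17 to 1.82, beside a median of -0.01 over all genes. In that fit 4.75% of genes were higher and 2.16% lower on the low plane at a false discovery rate (FDR) below 0.05. These calls come from the contrast by which the genes were chosen, so nothing is read from the members' own.

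**Figure D2:**
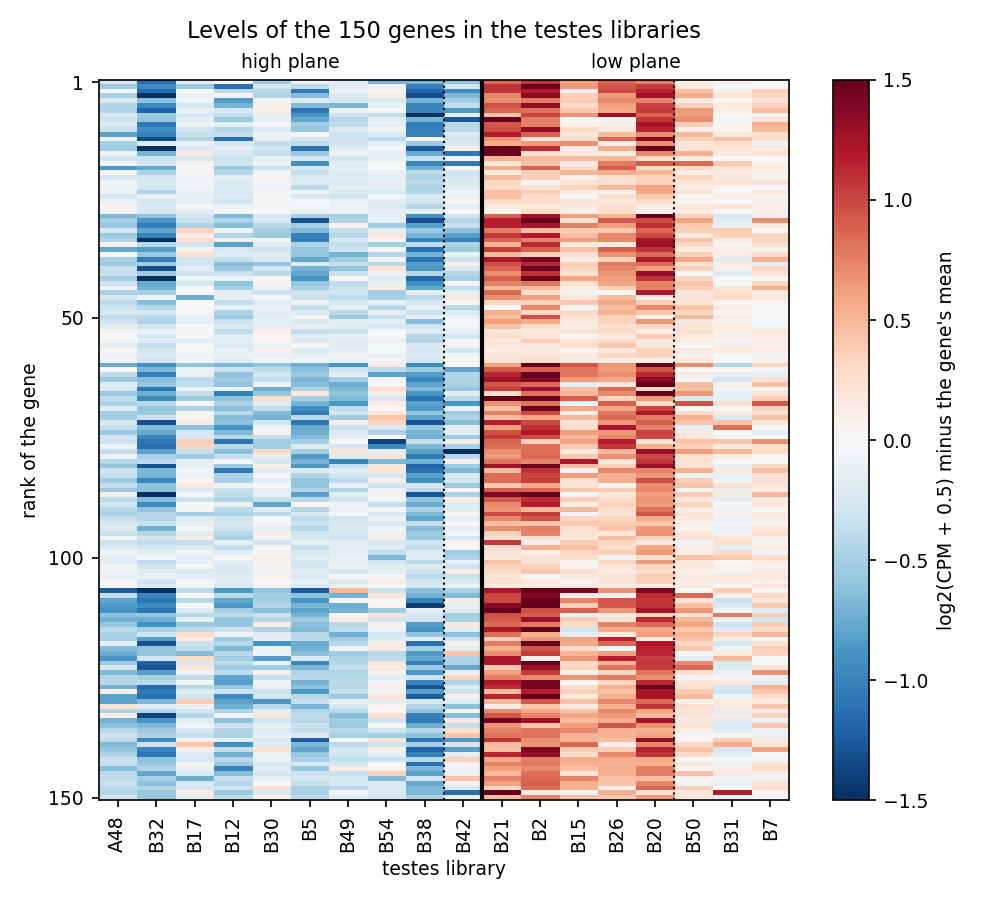
Level of each of the 150 genes (rows, by rank) in the 18 testes libraries (columns), as log2(CPM + 0.5) minus the gene's mean over these libraries, red higher and blue lower. The solid line separates the planes and the dotted lines separate libraries of low score (B42, and B21 to B20) from those of high score. The reddest columns are low plane libraries of low score, and the 3 low plane libraries of high score at the right are paler.

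The few pairs that went against the direction of the rule were unevenly spread over the libraries. Of 12000 pairs over the 150 genes, 257 did not have the higher value on the low plane, and 127 of these (49.4%) involved the low plane library B31. B7 accounted for 51, B15 for 33 and B50 for 28. Among the high plane libraries, B54 was involved in 74, B42 in 54, B17 in 51 and B30 in 46. B31, B7 and B50 are the 3 low plane libraries of high score.

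When libraries of like score were set beside each other, the genes remained higher on the low plane, which the rule largely ensured. The margin was smaller among libraries of high score and alike among those of low score. Among libraries of high score, the mean of the 3 low plane libraries over that of the 9 high plane libraries had a median log2 ratio of 0.64 (range 0.13 to 1.39), beside 0.08 over all ranked genes. All 3 low plane libraries lay above all 9 high plane libraries in 60 of the 150 genes, and in 2.76% of the ranked genes. Among libraries of low score, the 5 low plane libraries lay above B42 in 147 genes, and in 25.3% of the ranked genes, with a median log2 ratio of 1.06 beside 0.26 over all ranked genes. There were 58 genes that separated in both sets. The low plane library was higher in 96.2% of comparisons between 2 high score libraries, in 99.3% between a low score low plane and a high score high plane library, in 88.7% between the high score low plane libraries and B42, and in 99.6% between 2 low score libraries. Over all ranked genes the same shares were 57.9%, 51.4%, 56.4% and 60.5%. All of these shares use the libraries on which the genes were chosen.

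The fitted testes differences shrank in the same way. Their median over the 150 genes was 1.03 without a covariate, 0.69 with the score as a covariate and 0.54 (range 0.03 to 1.30) without the 6 low score libraries. All 150 were positive in each fit, which the rule largely ensured, since the fits use the contrast by which the genes were chosen. The sizes are therefore a description and do not divide the difference between diet and score. When the depth of the libraries (log2 of the total count) took the place of the score, the median was 0.80. Over all 15310 genes, 0 were then higher and 2 lower on the low plane at an FDR below 0.05. With the score as a covariate 1.77% of all genes were higher and 4.44% lower. Without the low score libraries, where 9 high plane and 3 low plane libraries remained, 0.0% of 15935 genes passed an FDR below 0.05.

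The slope of each gene on the score, with the diet in the same model, gave its change along the axis. In the testes the slope was negative in 144 of the 150 genes with a median of -0.10 on the log2 scale per unit of score, so that these genes tended to be higher where the score was low. Multiplied by the difference in mean score between the planes, -2.49, the testes slopes came to a median log2 difference of 0.25. This value is not set against the fitted difference of each gene, by which the genes were chosen. The score accounted for a median of 34.8% of the variation within diet of the 150 genes and 71.6% of that of all genes tested. The gene ranked 17 was among those that followed it most closely, at 95.8%. The gene ranked 3, at 7.18%, followed it little, although its testes log2 fold change was 1.32.

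Slopes in the other tissues came from libraries that played no part in the choice of the genes, although their score genes had been picked in part from the testes libraries. They are not independent of the choice. Low scores were more frequent on the low plane in the testes, so the rule favoured genes with negative slopes there. Over 13467 genes, slopes on the axis correlated at 0.973 between the testes and pituitary and at 0.958 between the testes and arcuate nucleus. In the anterior pituitary 112 of the 150 genes passed the filter, and in the arcuate nucleus 122. Of the 150, 110 passed in both tissues, 2 in the pituitary only, 12 in the arcuate nucleus only and 26 in neither. In the pituitary 79 of the 112 genes had a negative slope at an FDR below 0.05 by edgeR's quasi-likelihood test, beside 42.3% of all 14411 genes, and 3 had a positive slope, beside 44.9%. The median slope was -0.09, beside 0.01 over all genes. In the arcuate nucleus 57 of the 122 genes had a negative slope, beside 35.3% of all 14757 genes. None of the 122 had a positive slope that passed, so that slopes of either direction passed in 57 genes, beside 76.4% of all genes, and the median slope was -0.09 beside 0.02. The slopes of 50 genes passed without C44 and C8, with a median of -0.08. This result rested on C33, 1 of the 2 low score libraries of that tissue. Without it 32 of the 122 genes had a negative slope that passed, beside 30.8% of all genes, and 4 a positive one, with a median slope of -0.05 beside 0.07. It also rested on the scaling, since without TMM factors 14 of the 122 passed with a negative slope, beside 23.5% of all genes, and 8 with a positive one. With score genes picked without the testes, the negative slopes that passed numbered 79 in the pituitary and 56 in the arcuate nucleus.

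Of the 110 genes tested in both tissues, 83 (75.5%) had negative slopes in both, beside 45.8% of 13821 genes, and the same number were negative in all 3 tissues. For 47 genes the negative slope passed the test in both. The median size of the slope in log2 CPM was 0.0911 in the pituitary and 0.0870 in the arcuate nucleus, beside 0.179 and 0.200 over all genes. The score accounted for a median of 52.8% of the variation within diet in the pituitary and 17.2% in the arcuate nucleus, beside 83.2% and 59.9% over all genes. Multiplied by the testes difference in score, the pituitary slopes came to a median log2 difference of 0.23 and the arcuate nucleus slopes to 0.21.

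**Figure D3:**
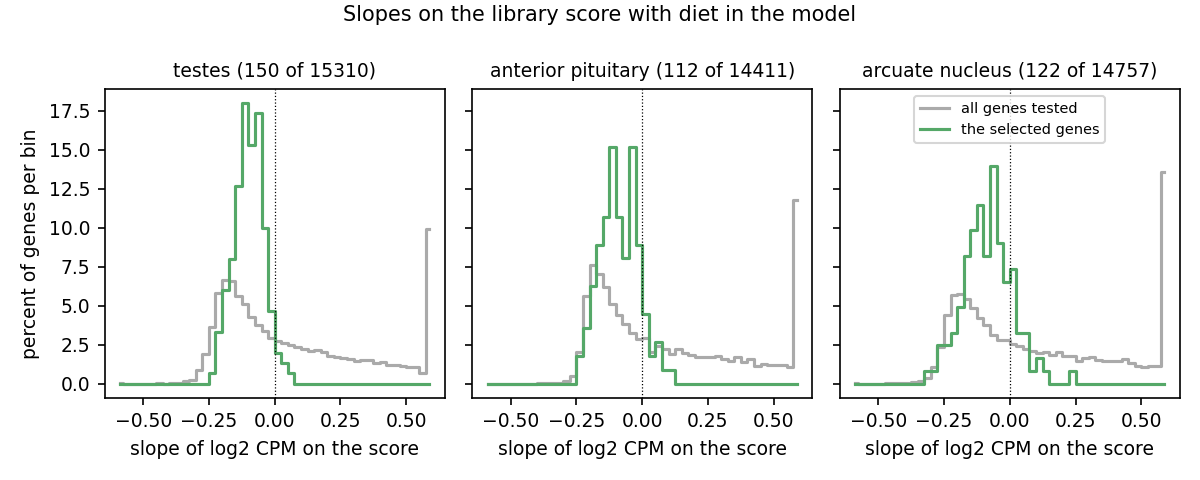
Distribution of the slopes of log2 CPM on the library score (horizontal axis, per unit of score) in each tissue, as the percentage of genes in bins of equal width, for all genes tested (grey) and the selected genes (green). Slopes beyond the ends of the axis are counted in the end bins. The selected genes form a narrow peak just below 0 in the 3 tissues. All genes tested spread to both sides with a long arm of positive slopes. Apart from the end bins, all genes tested peak further below 0 than the selected genes, at a bin centre of -0.1875 in each tissue.

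In the anterior pituitary, 2 of the 112 genes differed between the planes at an FDR below 0.05, both higher on the low plane. Over all 14411 genes 0.0694% were higher and 0.493% lower. Over the 112 genes the log2 fold change had a median of 0.02, which was also the median of all genes, and ran from -1.32 to 0.90, with 58 of 112 above 0. Those with an unadjusted p below 0.05 numbered 14, beside 7.42% of all genes.

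The 2 genes that passed were singled out after their values were seen. ENSBTAG00000009611, ranked 22, held 29.9 to 51.9 CPM (median 39.9) in the 9 high plane pituitary libraries and 44.3 to 70.1 CPM (median 56.9) in the 10 low plane libraries. The groups overlapped through A51, A29 and A36 on the high plane and A40 and A46 from the low plane calves. Its log2 fold change was 0.47 ± 0.10 (SE) with an FDR of 0.029 by edgeR. Its slope on the score was 0.00, and without the 5 low score libraries the fold change was 0.45 with an FDR of 0.0062. In the testes it had moved from a median of 63.2 to 85.0 CPM, and in the arcuate nucleus its log2 fold change was -0.01 ± 0.12 (SE), with medians of 28.7 and 29.1 CPM.

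ENSBTAG00000021972, ranked 87, held 11.4 to 32.4 CPM (median 17.8) on the high plane and 29.5 to 50.05 CPM (median 38.8) on the low plane of that tissue. The highest high plane value, in A51, was 1 of 3 from libraries of low score, and the other 6 high plane libraries lay at or below 20.8 CPM, under every low plane library. Its log2 fold change was 0.90 ± 0.19 (SE) with an FDR of 0.030, and 1.22 with an FDR of 1.8e-04 without the low score libraries. The slope on the score was -0.11 ± 0.02 (SE). In the testes it had 3.30 to 11.7 CPM (median 9.09) on the high plane and 11.2 to 32.5 CPM (median 15.4) on the low plane. In the arcuate nucleus the medians were 29.5 and 34.8 CPM and the log2 fold change of 0.64 ± 0.26 (SE) did not pass (unadjusted p = 0.0225, FDR = 0.477, edgeR).

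These 2 calls were not steady to the loss of single libraries. ENSBTAG00000009611 passed in 9 and ENSBTAG00000021972 in 6 of the 19 fits without 1 pituitary library, with log2 fold changes of 0.44 to 0.50 and 0.83 to 0.997. With the score as a covariate, 12 of the 112 genes were higher and 3 lower on the low plane, beside 4.97% and 4.04% of all genes. Without the low score libraries 8 were higher and 1 lower, beside 2.77% and 2.95%, and the median log2 fold change was 0.10 in that fit and 0.11 with the score. The 10 higher genes that the score added had log2 fold changes of 0.13 to 0.35, the largest being that of the gene ranked 137 (FDR of 3.0e-04), whose mean was 188 CPM. The largest of the 3 lower genes, ranked 119, had a log2 fold change of -1.27 with an FDR of 0.026 in the fit with the score, and -1.32 with an FDR of 0.143 without it.

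In the arcuate nucleus 0 of the 122 genes passed an FDR below 0.05 by edgeR, as did 0.0% of all 14757 genes. At an unadjusted p below 0.05 there were 25 of 122, beside 9.92% of all genes. DESeq2 gave 1 gene over the tissue, lower on the low plane and not among the 150, and limma voom gave 0. The log2 fold change had a median of 0.20 over the 122 genes, beside -0.01 over all genes, and was above 0 in 98 of 122. The smallest unadjusted p, 0.0026, belonged to the gene ranked 116 with a log2 fold change of 0.63 ± 0.18 (SE). The largest fold change, 1.62 ± 0.52 (SE), belonged to the gene ranked 73, whose mean was 1.46 CPM. Without C44 and C8 the median was 0.21, with 104 of 122 above 0.

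The shift in the arcuate nucleus was smaller in fits that took account of the score. The score was low in 2 low plane libraries and in no high plane library. These fits therefore do not divide the shift between diet and score. With the score as a covariate the median fell to 0.09, beside 0.00 over all genes. Then 84 of 122 genes were above 0, beside 50.4% of all genes, and 8 had an unadjusted p below 0.05, beside 3.74%. Without C6 and C33, the low score libraries, the median was 0.09, beside 0.00 over all genes. In that fit 85 of the 122 were above 0, beside 51.7%. Across the 122 genes the arcuate nucleus and testes log2 fold changes had a Pearson correlation of 0.48. It was 0.35 with the score as a covariate and 0.37 without the low score libraries of both tissues. Across the 112 genes tested in the pituitary the same values were -0.23, -0.09 and -0.01. The testes fold changes come from the contrast by which the genes were chosen. No correlation over all genes was calculated to set beside these values. The correlations describe genes measured in the same libraries, which are not independent, and the same calves gave the tissues. The difference between the pituitary and arcuate nucleus log2 fold changes was tested for 124 of the 150 genes in 1 fit of both tissues, and it passed in 0 of them, beside 0.0581% of 15503 genes.

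**Figure D4:**
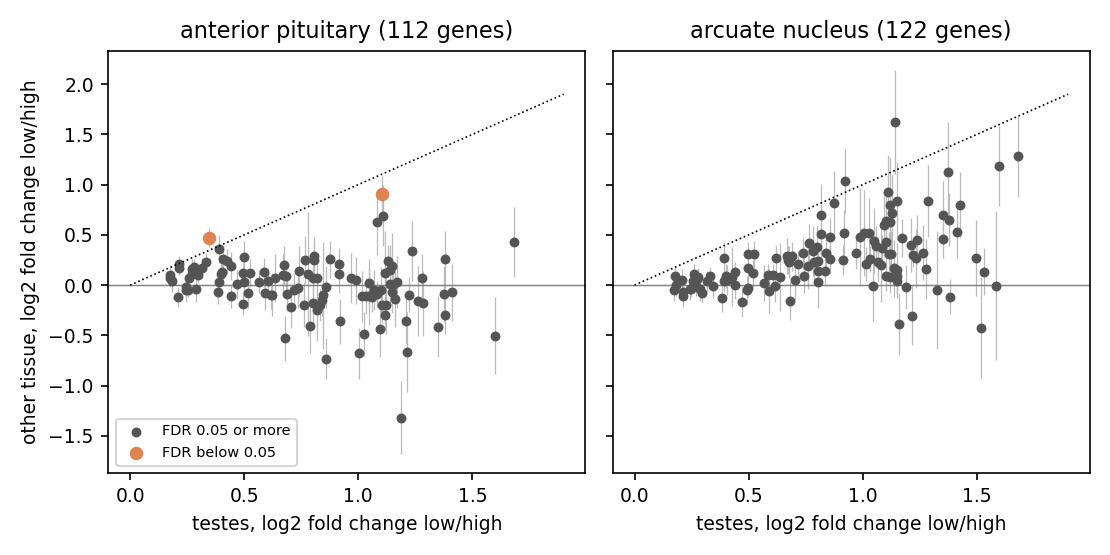
Log2 fold change of the low relative to the high plane in the anterior pituitary (left, 112 genes) and arcuate nucleus (right, 122 genes) against that in the testes, with 1 point per gene, grey bars of 1 SE, a dotted line of equality and the 2 genes with an FDR below 0.05 in orange. Pituitary points lie on both sides of 0, 58 of 112 above it, and 98 of 122 arcuate nucleus points lie above 0, most of them well under the dotted line.

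The genes were not, for the most part, particular to the testes. Their mean CPM over all testes libraries ran from 0.721 to 504, and 86 of the 150 (57.3%) had their highest mean in the testes, 43 in the arcuate nucleus and 21 in the pituitary. Among all ranked genes 50.1% were highest in the testes. A mean under 1 CPM in the pituitary was found for 41 of the 150 genes (27.3%), beside 9.44% of all ranked genes, and one under 1 CPM in the arcuate nucleus for 31 (20.7%), beside 7.90%. The counts of the highest tissue were the same without C44 and C8, and those under 1 CPM in the arcuate nucleus became 34.

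A subset of 18 genes (12%) had a testes mean over 10 times that of both other tissues, beside 4.19% of the ranked genes. Without C44 and C8 the numbers were 18 and 4.38%. The gene ranked 127 was the most abundant of them, with a mean of 71.2 CPM in the testes, 0.143 in pituitary libraries and 0.461 in the arcuate nucleus libraries other than C44. C44 held more than every other arcuate nucleus library for 17 of the 18, at a median of 23.3% of the testes level. Summed over the 18 genes, the level was 68.7 to 174 CPM (median 118) on the high plane and 153 to 436 CPM (median 236) on the low plane of the testes. These ranges overlapped only through B31 on the low plane and B30 and B54 on the high plane. The median testes log2 fold change of the 18 was 1.33, and 0.76 without the low score libraries, against 0.92 and 0.49 for the other 132. The slope on the score in the testes had a median of -0.14 in the 18 and -0.10 in the rest. The 18 were also scarcer, with low plane testes medians that centred on 4.55 CPM, against 10.1 CPM for the other 132. These testes values use the libraries on which the genes were chosen. The difference between the 18 and the other 132 is therefore a description and was not tested.

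**Figure D5:**
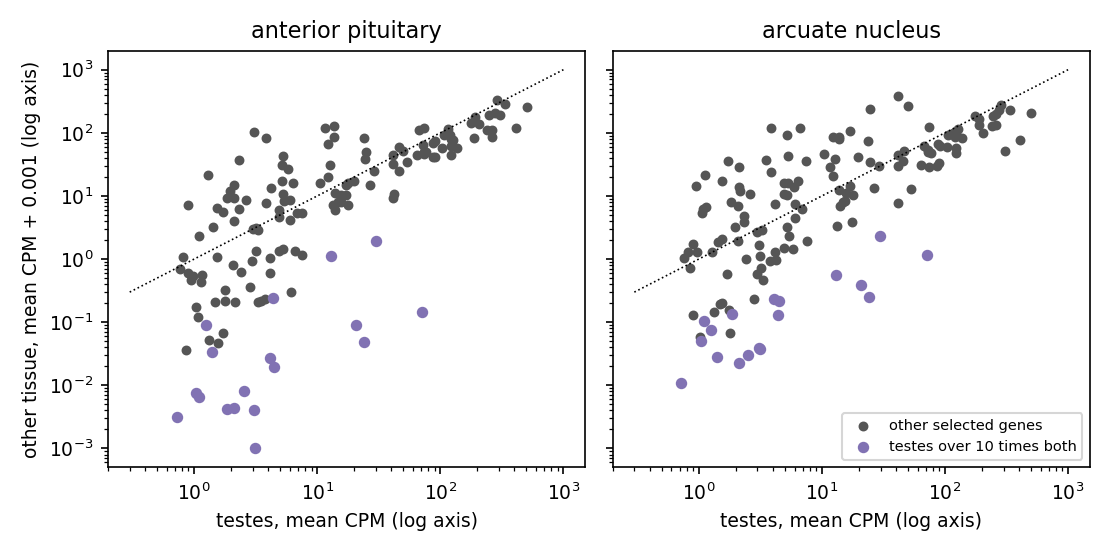
Mean CPM of each of the 150 genes in the anterior pituitary (left) and arcuate nucleus (right) against that in the testes, both on log axes with 0.001 added to the vertical one, and a dotted line of equality. Purple points are the 18 genes whose testes mean was over 10 times both others, and the other genes scatter on both sides of the line.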

How the data were processed

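RNA of 57 libraries from the testes, anterior pituitary and arcuate nucleus of bull calves was analysed. The authors deposited raw counts, whole numbers of single-end reads per Ensembl gene and library, without normalization. The submitters' processing notes name CASAVA 1.4, STAR, HTSeq and edgeR, and the genome build and annotation release are not given in the sources used here. Libraries that the study left out for few reads were not analysed here. Groups were the tissue and diet of the labels. Within a group the calves are the replicates, and any 2 libraries of 1 group differed by a chi-square of at least 2.72 per degree of freedom, so none was counted as a duplicate. The total count sets the precision of each value, and low CPM values are the least precise.

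The 150 genes were taken by the CPM rule given above, and the members and lists were chosen with earlier results of these data known. The identifiers matched no gene symbol (0 of 24616), so the marker and pathway lists could not be applied, and genes are given by rank with at most 2 identifiers per comparison. The genes to be named were the first 12 by rank, those on either side of the threshold, those of highest CPM and largest ratio, those called in another tissue and those of steepest slope, of which the text gives a few by rank and the others as counts and ranges. Any further gene given by rank was chosen after its values were seen. Diet and score slopes were tested with edgeR 4.0.16 (R 4.3.3; filterByExpr, TMM, quasi-likelihood test, Benjamini-Hochberg adjustment over all genes tested) within each tissue. The score averaged log2 CPM (prior count 2) over the 200 genes with the steepest slopes on the first scaling dimension (500 genes) of the other 2 tissues. Each SE of a log2 fold change or slope was derived as its absolute value over the square root of the quasi-likelihood F statistic. It is therefore approximate. Scores were compared between diets by two-sided permutation, exact in the testes and pituitary and with 100000 resamples in the arcuate nucleus. On simulated data with 200 changed genes, fitted with the score as a covariate, 98% of diet changes of 1.5 on the log2 scale were recovered in the pituitary and 97% in the arcuate nucleus. Score slopes of 0.3 in another 200 genes were recovered in 96.5% and 83.5%. Smaller changes and the diet fits without a covariate were not simulated, so these shares do not bear on the small differences above. DESeq2 1.42.0, limma 3.58.1 (voom), other scalings, filters and covariates, and leaving out each library were tried as alternatives, and those using a library class, the low score libraries, C44 and C8, the testes covariates, the score by diet and the difference between tissues were chosen after seeing the data.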

Additional observations from a re-analysis of the deposited data

Results flagged for a closer look

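Values of 24 groups of libraries were searched for a library that stood apart from its group by Dixon's 95% limit, of which 1.2 would be found by chance, about 1 in 20, and 4 were found. The library score of B42 was -0.651, far under the other high plane testes libraries, of which the nearest had 4.20. The summed level of the 18 testes-enriched genes was 43.4 CPM in C44, against a next highest of 5.66 CPM in the high plane arcuate nucleus. The same sum was 9.28 CPM in A57, a low score library, against 5.69 CPM for the next of the high plane pituitary. The total count of C41, 27729419, stood over the other low plane arcuate nucleus libraries, of which the nearest had 16556829. The cause of each was not tested.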

How the results depend on the processing

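The choice of the 150 genes depended on few libraries. It shared 102 genes with a ranking by TMM-scaled CPM, 93 after thinning every library to the smallest testes total, 53 after the score was taken out, and 32 among high score libraries only. Leaving out 1 testes library left from 70 to 149 of the genes, with 70 without B31, 94 without B42 and 94 without B7. In the anterior pituitary the count of 2 genes changed by diet became 15 with the score as a covariate, 13 with the library class, 9 without the low score libraries, 5 with DESeq2 (3 higher and 2 lower), 13 with limma voom (11 and 2) and 1 without TMM factors. Over all genes the shares higher and lower were 4.31% and 3.73% with the class, 0.541% and 1.25% with DESeq2, 3.60% and 3.98% with limma voom, and 0.0278% and 0.319% without TMM factors, so that the larger counts came with larger shares of all genes. It was 0 to 2 without 1 library, staying at 2 in 4 of 19 fits (without A57, A51, A27 or A40), falling to 1 in 8 (in 1 of them, without A19, another gene, lower on the low plane) and to 0 in 7 (without A1, A23, A39, A52, A14, A35 or A47). The FDR of ENSBTAG00000009611 was 0.0223 to 0.0869 in these fits and 0.145 without TMM factors, and that of ENSBTAG00000021972 was 0.0171 to 0.0948. The 15 genes changed by diet in the fit with the score were 9 without the low score libraries. In the arcuate nucleus the 57 negative slopes of 122 were 14 without TMM factors, beside 23.5% of all genes, where 8 were positive and the median of all genes moved to 0.09. They were 26 of 95 with a CPM above 1 in every library, beside 36.3% of all genes, and 32 to 57 without 1 library, with 32 without C33, beside 30.8%. In these 3 fits the share of the selected genes was below that of all genes. No called result reversed its direction, while the median pituitary log2 fold change, uncalled, lay between -0.08 and 0.06 without 1 library, and that of the arcuate nucleus between 0.11 and 0.25. The cause of these shifts was not tested. With the first scaling dimension in place of the score, the unadjusted permutation p of the difference between the diets was 0.0317 in the testes. It was 0.287 in the pituitary and 0.272 in the arcuate nucleus. With score genes from 1 other tissue it was 0.364 in the pituitary and 0.233 in the arcuate nucleus, and no such alternative was made for the testes. These p-values were not adjusted over the tissues. No paired analysis was possible because the labels give groups no shared replicate numbers and do not tie libraries to calves.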
